A study of Caenorhabditis elegans with 6 samples.

Results

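The genes described here encode fatty acid binding proteins of *C. elegans*: *lbp-1* to *lbp-8*, of the lipid binding protein family, and *far-1* and *far-2*, of the fatty acid and retinol binding family. They were chosen by gene name and make up 10 of the 20351 genes in the deposited count table. The libraries came from whole L1 larvae of the wild-type strain N2. In the *elt-2* RNAi group (n = 3), the mothers had been fed bacteria targeting *elt-2* from day 1 of adulthood for 24 hours. In the control group (n = 3), the mothers had been fed empty vector bacteria for the same time. In both groups embryos were released by bleaching and hatched overnight in a buffer without food, so that all larvae were unfed. *elt-2* encodes the GATA transcription factor that maintains the intestinal expression program, and the comparison asks which transcripts depend on it at this stage.

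Fatty acids are poorly soluble in water, and small binding proteins carry them within and between cells. Proteins of the LBP family fold into a beta barrel that encloses the ligand and are related to the fatty acid binding proteins of vertebrates. LBP-1, LBP-2 and LBP-3 carry a signal sequence for secretion, whereas LBP-4 to LBP-9 are thought to act inside cells. The FAR proteins are rich in alpha helices, bind fatty acids and retinol, and are known only from nematodes, where some parasitic species secrete them. The intestine is the main fat store of the worm, so lipid carriers are of interest where the intestinal program is disturbed.

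The libraries held between 13700707 and 22124319 counts, of which the 10 genes took between 11792 and 45644. They were 3SEQ libraries, read at the 3' end of poly-A RNA, so a count depends little on gene length and the levels of genes may be compared. Levels are given in CPM, the counts scaled to a common library size with edgeR's TMM factors. A count of 3 corresponded to between 0.135 and 0.244 CPM and was taken as the floor. *elt-2* itself (C33D3.1) had 21, 34 and 44 counts in the *elt-2* RNAi libraries A, B and C, against 32, 40 and 21 counts in control libraries of the same letters. Its log2 fold change was -0.48 (standard error 0.46, adjusted p = 0.660, edgeR), so a lower level of the targeted RNA was not detectable in these libraries. The groups were taken from the labels, and the qRT-PCR and larval arrest by which the study checked the knockdown were not analysed here. Of the 10063 genes tested, edgeR called 283 at a false discovery rate of 10% (2.81%), 263 lower (2.61%) and 20 higher (0.199%). Over all genes tested the median log2 fold change was 0.06, and it became 0.42 when libraries were scaled by total counts alone. Of the calls, 92.9% were lower with TMM and 74.1% with that scaling.

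Of the 10 genes, 9 passed edgeR's expression filter and were tested, *lbp-8* was not, and edgeR called 0 of the 9. The DESeq2 Wald test called 1, *lbp-6*, lower, where over all genes it called 6.04% (5.15% lower and 0.894% higher), and a rank product called 0. At an unadjusted p under 0.05 in edgeR stood 4 genes, with negative fold changes for *lbp-2*, *lbp-5* and *lbp-6* and a positive one for *lbp-1*. Such a p was met by 14.5% of all genes tested. In TMM-scaled CPM the groups did not overlap for 2 of the 9 genes, *lbp-5* and *lbp-6*, both lower in the *elt-2* RNAi libraries. With scaling by total counts both of these genes overlapped between the groups. Of all genes tested, 17.9% did not overlap in TMM-scaled CPM, 10.9% in the lower and 7.08% in the higher direction. Of the 9 log2 fold changes 4 were positive and 5 negative, with a median of -0.20, against a median of 0.06, 53.7% positive and 46.3% negative for all genes tested.

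**Figure D1:**
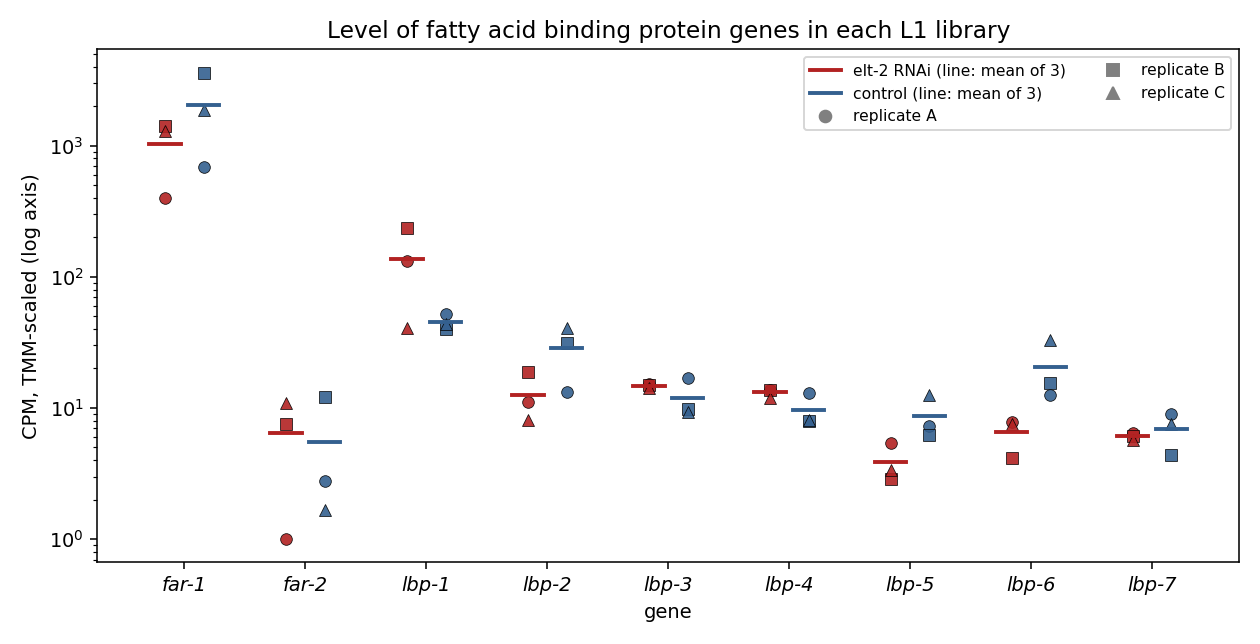
Level of each tested gene in CPM after TMM scaling (log axis) in the 3 *elt-2* RNAi libraries (red, left of each pair) and the 3 control libraries (blue, right); horizontal lines are group means and symbols mark the replicate letter. *far-1* lies above all others in every library, and the red and blue points do not overlap for *lbp-5* and *lbp-6*.

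The levels of the 10 genes spanned a wide range, with *lbp-8* at or below the floor. *far-1* was the most abundant in every library, with a mean of 1028 ± 548 CPM in the *elt-2* RNAi libraries and 2044 ± 1459 CPM in the control libraries (SD, n = 3 each). It ranked 91 among all genes by mean CPM and took between 67.4% and 96.6% of the counts of the 10 genes. *lbp-1* followed in both groups, and its range did not overlap that of *far-1*. In the *elt-2* RNAi libraries the order went on with *lbp-3*, *lbp-4*, *lbp-2*, *lbp-6*, *far-2*, *lbp-7*, *lbp-5* and *lbp-8*. Of these neighbours, *lbp-4* and *lbp-2*, *lbp-6* and *far-2*, and *far-2* and *lbp-7* had overlapping ranges. In the control libraries the order below *lbp-1* was *lbp-2*, *lbp-6*, *lbp-3*, *lbp-4*, *lbp-5*, *lbp-7*, *far-2* and *lbp-8*. There, every neighbouring pair from *lbp-1* down to *far-2* had overlapping ranges. Compared within each library, *lbp-1* was above *lbp-2*, *lbp-2* above *lbp-6* and *lbp-3* above *lbp-4* in 6 of 6 libraries, whereas the other steps of the control order from *lbp-6* to *far-2* held in 2 of the 3 control libraries. In both groups the range of *far-1* at the top and that of *lbp-8* at the bottom stood clear of their neighbours.

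Among the genes for secreted carriers, *lbp-1* and *lbp-2* differed between the groups in opposite directions, and neither difference passed the test. The 3 genes lie side by side on the plus strand of chromosome X of WBcel235: *lbp-3* (F40F4.4) from 3257372 to 3258155, *lbp-1* (F40F4.3) from 3259142 to 3259812 and *lbp-2* (F40F4.2) from 3260610 to 3261470, with gaps of 986 and 797 bases. *lbp-1* had 2637, 5270 and 866 counts in the *elt-2* RNAi libraries A, B and C, which are 132, 237 and 40.6 CPM. In the control libraries A, B and C it had 860, 493 and 676 counts, which are 52.3, 40.1 and 43.5 CPM. Replicates A and B of the *elt-2* RNAi group were therefore far above all control libraries, whereas replicate C lay within their range. The mean was 137 ± 98.2 CPM in the *elt-2* RNAi libraries and 45.3 ± 6.29 CPM in the control libraries (SD, n = 3 each). The log2 fold change was 1.59 (standard error 0.61), with a 95% interval from 0.25 to 2.93 and an adjusted p of 0.262 in edgeR. Without *elt-2* RNAi replicate B it was 0.93, and without *elt-2* RNAi replicate C it was 2.03. With no filter on low counts beyond 1 count, edgeR called *lbp-1* higher (adjusted p = 0.0677).

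*lbp-2* had 220, 415 and 174 counts in the *elt-2* RNAi libraries A, B and C (11.02, 18.7 and 8.16 CPM). Control libraries A, B and C held 217, 386 and 635 counts (13.2, 31.4 and 40.9 CPM). Control A lay among the *elt-2* RNAi libraries, and the other control libraries lay above them. The log2 fold change was -1.17 (95% interval from -2.33 to -0.02, adjusted p = 0.334, edgeR).

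*lbp-3*, whose product is released by the adult intestine and acts on neurons, had 302, 334 and 303 counts in the *elt-2* RNAi libraries and 277, 120 and 145 counts in the control libraries, in the order A, B and C. It was nearly constant across the *elt-2* RNAi libraries, at 14.8 ± 0.500 CPM, and varied more in the control libraries, at 12.0 ± 4.22 CPM (SD, n = 3 each). Its log2 fold change of 0.30 had a 95% interval from -0.56 to 1.16 (adjusted p = 0.750, edgeR).

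Because counts of genes within a library can be divided without any scaling between libraries, ratios of neighbouring genes were examined as a description. The ratio of *lbp-1* to *lbp-2* counts was 12.0, 12.7 and 4.98 in the *elt-2* RNAi libraries A, B and C, against 3.96, 1.28 and 1.06 in the control libraries A, B and C. These ratios did not overlap between the groups, with the closest values in *elt-2* RNAi C and control A. No share of ratios over all pairs of genes was computed to set beside this. Of single genes tested, 17.9% did not overlap between the groups. The ratio of *lbp-1* to *lbp-3* was 8.73, 15.8 and 2.86 in the *elt-2* RNAi libraries and 3.105, 4.11 and 4.66 in the control libraries, and here the groups overlapped. That of *lbp-2* to *lbp-3* was 0.728, 1.24 and 0.574 in the *elt-2* RNAi libraries and 0.783, 3.22 and 4.38 in the control libraries, and these overlapped as well. The adjacent genes of this cluster thus did not keep a fixed proportion between libraries.

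**Figure D2:**
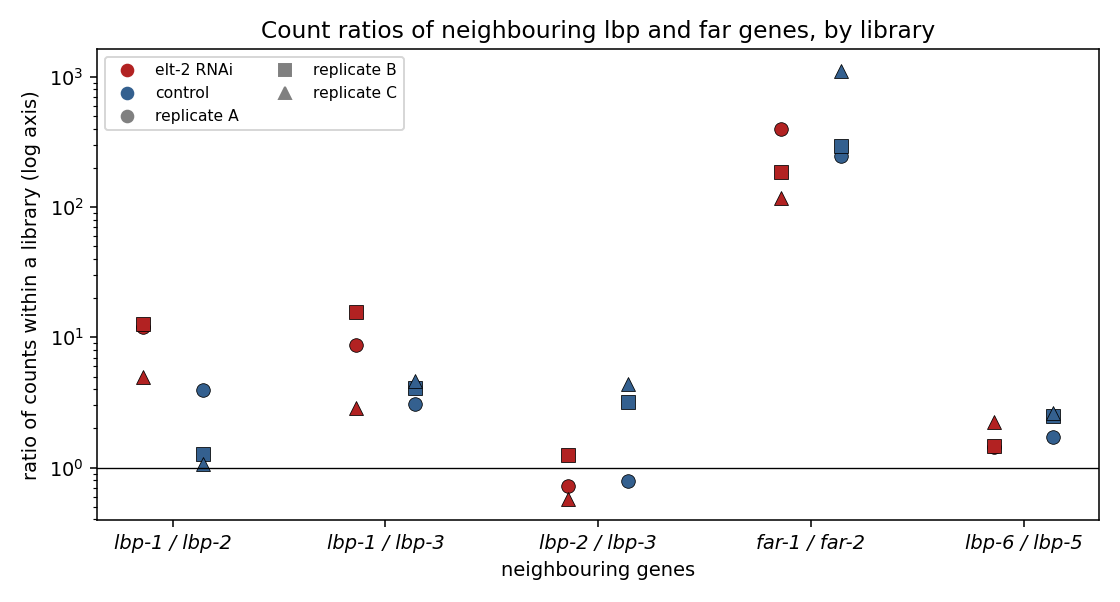
Ratio of the counts of neighbouring genes within each library (log axis), for the *elt-2* RNAi libraries (red, left) and the control libraries (blue, right), with symbols for the replicate letter; the black line marks a ratio of 1. The ratio of *lbp-1* to *lbp-2* lies between 4.98 and 12.7 in the *elt-2* RNAi libraries and between 1.06 and 3.96 in the control libraries, and the other ratios overlap between the groups.

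Of the genes for intracellular carriers, *lbp-5* and *lbp-6* had lower TMM-scaled CPM in all *elt-2* RNAi libraries than in any control library. Neither passed the test, and neither was separated with scaling by total counts. *lbp-4* and *lbp-7* overlapped between the groups. *lbp-6* (W02D3.5) and *lbp-5* (W02D3.7) lie on the minus strand of chromosome I, from 6728296 to 6729376 and from 6731267 to 6732276, with 1890 bases between them. *lbp-6* had 156, 93 and 161 counts in the *elt-2* RNAi libraries A, B and C (7.82, 4.18 and 7.55 CPM). Control libraries A, B and C held 206, 191 and 513 counts (12.5, 15.5 and 33.002 CPM). Its mean was 6.52 ± 2.03 CPM in the *elt-2* RNAi libraries and 20.4 ± 11.1 CPM in the control libraries (SD, n = 3 each). The log2 fold change was -1.64 (standard error 0.48, 95% interval from -2.71 to -0.57), with an adjusted p of 0.144 in edgeR. Control C was the highest library, and without it the log2 fold change was -1.11. *lbp-6* was called lower under 4 of the 14 other fits, with adjusted p between 0.0325 and 0.464 over all of them. They include the DESeq2 Wald test (adjusted p = 0.0405) and the edgeR fit with a replicate block (adjusted p = 0.0827). Scaling by total counts gave -1.23 (adjusted p = 0.388, edgeR). With that scaling the groups overlapped, since *elt-2* RNAi A (156 of 14378960 counts) lay above control B (191 of 19945971 counts).

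The last 35 bases of *lbp-6* overlap the 3' end of *mec-6* on the opposite strand, and whether the counting used strand is not given in the sources used here. *mec-6*, which encodes a channel-associated protein of touch neurons, had 91, 78 and 102 counts in the *elt-2* RNAi libraries and 72, 90 and 99 counts in the control libraries, in the order A, B and C. These counts, from 72 to 102, were not scaled for library size, unlike the CPM of *lbp-6*. A count of 3 corresponded to 0.135 CPM in *elt-2* RNAi B and to 0.244 CPM in control B. Similar counts of *mec-6* therefore do not mean similar levels. Whether reads of *mec-6* entered the counts of *lbp-6* was not tested.

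*lbp-5*, which has been linked to fat storage together with the nuclear receptor NHR-49, had 108, 64 and 72 counts in the *elt-2* RNAi libraries (5.41, 2.88 and 3.38 CPM). It was at 7.24, 6.27 and 12.5 CPM in the control libraries, again in the order A, B and C, from between 77 and 194 counts. The gap between the groups was narrow, since *elt-2* RNAi A at 5.41 CPM came close to control B at 6.27 CPM. With scaling by total counts *elt-2* RNAi A (108 of 14378960 counts) lay above control B (77 of 19945971 counts). The log2 fold change was -1.16 (95% interval from -2.08 to -0.23, adjusted p = 0.238, edgeR). *lbp-5* and *lbp-6* varied together over the 6 libraries (Pearson's r = 0.95 of log2(CPM + 1), as a description of libraries that share their scaling). The ratio of *lbp-6* to *lbp-5* counts stayed between 1.44 and 2.24 in the *elt-2* RNAi libraries and between 1.73 and 2.64 in the control libraries, the narrowest span over all 6 libraries among the pairs examined.

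*lbp-4* (ZK742.5) is on the plus strand of chromosome V, between 7820578 and 7821477. It had 274, 307 and 254 counts in the *elt-2* RNAi libraries and 213, 97 and 125 counts in the control libraries, in the order A, B and C. After scaling, *elt-2* RNAi C at 11.9 CPM lay below control A at 12.954 CPM, and the other control libraries were at 7.90 and 8.04 CPM. The log2 fold change was 0.45 (95% interval from -0.38 to 1.28, adjusted p = 0.616, edgeR). *lbp-4* followed *lbp-3*, a gene on another chromosome, more closely than any other pair of the 9 genes followed each other (Pearson's r = 0.96 over the 6 libraries, as a description).

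*lbp-7* (T22G5.2) lies on chromosome V from 13879552 to 13880213, and *lbp-8* (T22G5.6) from 13890773 to 13891364, 10559 bases further on. *lbp-7* had 129, 136 and 122 counts in the *elt-2* RNAi libraries and 148, 54 and 117 counts in the control libraries, in the order A, B and C. At 6.10 ± 0.370 CPM in the *elt-2* RNAi libraries and 6.97 ± 2.35 CPM in the control libraries (SD, n = 3 each), the groups overlapped. Its log2 fold change was -0.20 (95% interval from -1.02 to 0.63, adjusted p = 0.836, edgeR) and turned to 0.091 with scaling by total counts.

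*lbp-8*, whose product carries a lipid signal from lysosomes to the nucleus in adults, was close to absent from these larvae. It had 0, 1 and 3 counts in the *elt-2* RNAi libraries and 1, 0 and 2 counts in the control libraries, in the order A, B and C. Summed over a group this was 4 counts, or 0.0630 CPM (exact Poisson 95% interval from 0.0172 to 0.161), in the *elt-2* RNAi libraries. In the control libraries it was 3 counts, or 0.0678 CPM (from 0.0140 to 0.198), and these intervals cover counting error only. No difference could be detected at this depth, and no library was above the floor of 3 counts. *lipl-4*, the lysosomal lipase that acts upstream of *lbp-8* in adults, had 1, 0 and 0 counts in the *elt-2* RNAi libraries and 1, 1 and 0 counts in the control libraries.

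The FAR genes *far-1* and *far-2* stand head to head on chromosome III, yet their levels were far apart and neither differed detectably between the groups. *far-1* (F02A9.2) is on the minus strand from 9080371 to 9081179 and *far-2* (F02A9.3) on the plus strand from 9081828 to 9082511, with 648 bases between them. *far-1* had 7946, 31143 and 27388 counts in the *elt-2* RNAi libraries A, B and C, which are 398, 1400 and 1285 CPM. In the control libraries A, B and C it had 11315, 44077 and 28853 counts, which are 688, 3588 and 1856 CPM. Library A was the lowest of its group in both groups, and *elt-2* RNAi B and C lay above control A. The spread within the groups was as wide as the difference between them, with a log2 fold change of -0.99 (95% interval from -2.52 to 0.54, adjusted p = 0.545, edgeR). Without control B it was -0.31, and without control A it was -1.40.

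*far-2* had 20, 168 and 232 counts in the *elt-2* RNAi libraries (1.00, 7.55 and 10.9 CPM) and 46, 149 and 26 counts in the control libraries (2.80, 12.1 and 1.67 CPM), in the order A, B and C. It was the least reproducible of the tested genes, with a coefficient of variation of 77.6% in the *elt-2* RNAi libraries and 104% in the control libraries. Its log2 fold change was 0.24 (95% interval from -1.60 to 2.08, adjusted p = 0.917, edgeR) and changed sign when single libraries were left out, from -0.36 without *elt-2* RNAi C to 1.53 without control B. The ratio of *far-1* to *far-2* counts ran from 118 to 397 in the *elt-2* RNAi libraries and from 246 to 1110 in the control libraries, so that their proportion was not fixed.

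The genes whose pattern over the 6 libraries was most like that of 3 of these genes were named after their values were seen, with Pearson's r of log2(CPM + 1) as the measure. For *lbp-6* they were *nkb-3*, *elo-1* and *phat-7* (r = 0.996, 0.996 and 0.995). *elo-1* encodes a fatty acid elongase and had 217, 135 and 199 counts in the *elt-2* RNAi libraries and 297, 254 and 627 counts in the control libraries, in the order A, B and C. For *lbp-1* they were *cwf-19L1*, F37B4.10 and *arx-6* (r = 0.994, 0.994 and 0.992). For *far-1* they were *rgs-6*, *atf-7* and *rpl-3* (r = 0.998, 0.989 and 0.988). *rpl-3*, a protein of the large ribosomal subunit, had 6048, 52933 and 41026 counts in the *elt-2* RNAi libraries and 19577, 136173 and 68005 counts in the control libraries, so it too was lowest in the A library of each group. With 6 libraries and 10063 genes, values of r this high are a description and no sign of a relation.

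The remaining genes of both families, *lbp-9* and *far-3* to *far-8*, were all tested, and edgeR called 2 of these 7 lower and 0 higher, where 5 had negative and 2 positive fold changes. Over all genes tested 2.61% were called lower and 46.3% were negative. The median log2 fold change of the 7 was -1.43. *far-4* (F15B9.2) had 19, 31 and 12 counts in the *elt-2* RNAi libraries and 65, 195 and 90 counts in the control libraries, in the order A, B and C. It fell by 3.12 on the log2 scale, with a standard error of 0.59 (adjusted p = 0.0296, edgeR), and every *elt-2* RNAi library was below every control library. It was not called without *elt-2* RNAi C (adjusted p = 0.103, edgeR), and the log2 fold change was -2.32 without control B and -2.51 with scaling by total counts.

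*far-7* (K01A2.2) had 94, 43 and 73 counts in the *elt-2* RNAi libraries and 118, 149 and 456 counts in the control libraries, in the order A, B and C. It fell by 2.27 on the log2 scale, with a standard error of 0.57 (adjusted p = 0.0932, edgeR). This call is close to the threshold and was lost with scaling by total counts (adjusted p = 0.186, edgeR), and on leaving out any library other than control A (adjusted p up to 0.304, edgeR). It was also lost with a filter at a mean count of at least 10 (adjusted p = 0.1004, edgeR) and with the rank product (adjusted p = 0.111). Without control C the log2 fold change of *far-7* was -1.53. *far-8* had a log2 fold change of -2.15 (adjusted p = 0.152, edgeR), with 1 *elt-2* RNAi library at 1.17 CPM above the lowest control library at 1.09 CPM. It was called lower by the DESeq2 Wald test (adjusted p = 0.0309) and, in edgeR, with no filter beyond 1 count, with a replicate block and without control A (adjusted p = 0.00243, 0.0922 and 0.0465). The neighbours *far-3* and *far-5* of *far-4* on chromosome V had log2 fold changes of 0.88 (adjusted p = 0.460) and -0.12 (adjusted p = 0.916, both edgeR), and *far-6* had 0.25. *far-3* and *far-5* overlap by 50 bases at their 3' ends on opposite strands of WBcel235, so their counts are uncertain, and the value for *far-5* turned positive with scaling by total counts (0.31). *lbp-9* ranged from 3.61 to 22.6 CPM in the *elt-2* RNAi libraries and from 4.80 to 86.0 CPM in the control libraries, with its lowest value of each group in library A. Whether these 7 genes differ from the 9 in their response was not tested.

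**Figure D3:**
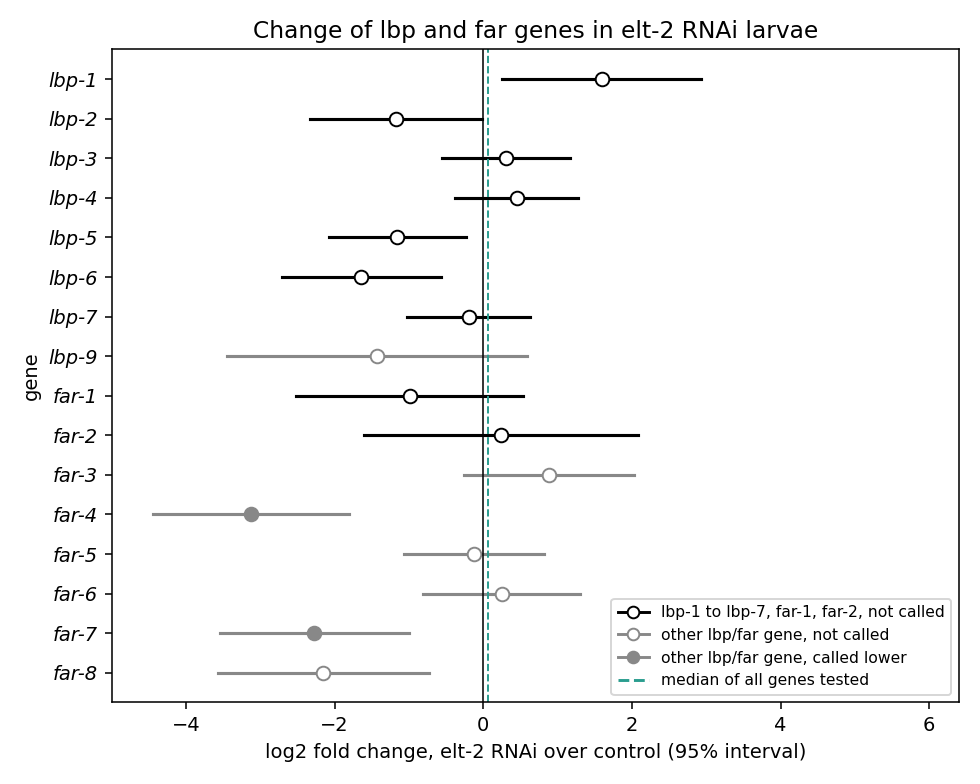
Log2 fold change of each tested gene of both families, *elt-2* RNAi over control, with its 95% interval from edgeR; black marks *lbp-1* to *lbp-7*, *far-1* and *far-2*, grey the remaining genes, filled circles the called genes, and the dashed line the median of all genes tested (0.06). No black symbol is filled, and the filled ones are *far-4* at -3.12 and *far-7* at -2.27.

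Genes that act on fatty acids beside these carriers were examined as lists. The fatty acid activation list holds the acyl-CoA synthetases *acs-1* to *acs-22* and 6 acyl-CoA binding proteins. Of its 28 genes 27 were matched in the table and 22 tested, and edgeR called 0 lower and 0 higher. Their median log2 fold change was -0.16, with 14 negative and 8 positive. Groups did not overlap for 7 of the 22, all lower in the *elt-2* RNAi libraries, where 10.9% of all genes were lower without overlap. At an unadjusted p under 0.05 edgeR had 4 lower and 1 higher, against 14.5% of all genes in either direction, and the rank product called 0. The DESeq2 Wald test, which called 5.15% of all genes lower, called 4 of the 22 lower: the synthetases *acs-2*, *acs-11* and *acs-19* and the binding protein *acbp-1*. *acs-2*, a mitochondrial synthetase induced on fasting, had a log2 fold change of -1.88 in edgeR (adjusted p = 0.175). The list of lysosomal lipases and regulators of fat metabolism holds *lipl-1* to *lipl-8*, the nuclear receptors *nhr-49*, *nhr-80*, *nhr-13* and *nhr-66*, and their partners *mdt-15* and *sbp-1*. Of its 14 genes 9 were tested, and 3 were called lower (2.61% of all genes) and 0 higher, with a median of -0.31.

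The called genes were *lipl-2*, *lipl-5* and *nhr-80*. The lysosomal lipase gene *lipl-2* had 4, 5 and 3 counts in the *elt-2* RNAi libraries and 48, 20 and 122 counts in the control libraries, in the order A, B and C (log2 fold change -4.41, adjusted p = 0.0133, edgeR), and its log2 fold change was -3.56 without control C. *lipl-5* had 1, 6 and 15 counts in the *elt-2* RNAi libraries and 39, 177 and 96 counts in the control libraries (log2 fold change -4.44, adjusted p = 0.0274, edgeR). It was not called without *elt-2* RNAi B (adjusted p = 0.129, edgeR), and the log2 fold change was -3.61 without control B and -5.47 without *elt-2* RNAi C. *lipl-3* was not tested, with 0 counts in every *elt-2* RNAi library and 1, 15 and 12 counts in the control libraries. Its group mean was at least 4.82-fold lower, taking 3 counts per library as the floor. That bound rests on control B and C, since control A was itself below the floor. *nhr-80*, which encodes a receptor that responds to fatty acid signals, had 20, 23 and 13 counts in the *elt-2* RNAi libraries and 32, 62 and 41 counts in the control libraries (log2 fold change -1.85, adjusted p = 0.0990, edgeR). This call was lost with scaling by total counts (adjusted p = 0.352, edgeR) and on leaving out any library other than control A (adjusted p up to 0.329, edgeR). It was also lost with a filter at a mean count of at least 10 (adjusted p = 0.105, edgeR) and with the rank product (adjusted p = 0.464). *nhr-49*, the receptor tied to *lbp-5* and *lbp-8*, had a log2 fold change of 0.01 (adjusted p = 0.992, edgeR).

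In RNA of whole larvae, fewer cells of a type and less RNA per cell cannot be told apart. The summed level of 10 intestine markers was 76.8, 161 and 392 CPM in the *elt-2* RNAi libraries and 483, 1259 and 495 CPM in the control libraries, in the order A, B and C, and these sums did not overlap. That rested on *asp-1*, an aspartic protease gene of the intestine: without it, a sum chosen after the values were seen, the other 9 markers gave 65.2, 130 and 255 CPM in the *elt-2* RNAi libraries and 168, 572 and 172 CPM in the control libraries, which overlapped. Of the 10, edgeR called 2 lower, *vha-6* and *mtl-2*, and 0 higher, where 2.61% of all genes tested were called lower. The median of the 10 log2 fold changes was -1.16, with 8 negative and 2 positive. The positive ones were *ges-1* at 0.15 and *elt-7* at 0.74 (adjusted p = 0.894 and 0.468, edgeR). Groups did not overlap for 5 of the 10, all lower, where 10.9% of all genes were lower without overlap. *mtl-2* was at or below the floor in every *elt-2* RNAi library, at least 9.29-fold lower, and the median with *mtl-2* at that bound was -1.16. The call of *vha-6* was lost with scaling by total counts (adjusted p = 0.114, edgeR) and without *elt-2* RNAi A, *elt-2* RNAi B or control C (adjusted p = 0.103, 0.153 and 0.133, edgeR). *asp-1* was called lower with scaling by total counts (adjusted p = 0.0406, edgeR) and not with TMM (adjusted p = 0.142, edgeR). At an unadjusted p under 0.05 in edgeR 5 of the 10 were lower, against 14.5% of all genes in either direction. The DESeq2 Wald test, which called 5.15% of all genes lower, called 4 of the 10 lower (*vha-6*, *asp-1*, *mtl-2* and *pgp-1*). The rank product called 1, *asp-1*. Of the markers of hypodermis, body wall muscle, neurons and pharynx, 8 tested genes each, edgeR called 0, and the medians were 0.64, -0.95, -0.71 and -0.82. In edgeR 0, 2, 2 and 1 of them had an unadjusted p under 0.05, a share to be set beside the same 14.5% of all genes. The 2 in muscle were 1 lower and 1 higher, and those in neurons and pharynx were lower. The DESeq2 Wald test called 1 in muscle (*unc-22*) and 1 in neurons (*egl-21*), both lower, and the rank product called 0. The summed hypodermis markers were 437, 574 and 2876 CPM in the *elt-2* RNAi libraries and 809, 492 and 304 CPM in the control libraries. The highest of these sums, in *elt-2* RNAi C, was mostly *sqt-3*, at 2505 CPM. The body wall muscle sum ranged from 904 to 1763 CPM in the *elt-2* RNAi libraries and from 1342 to 5937 CPM in the control libraries. Its highest value, in control B, was mostly *unc-27*, at 4496 CPM. Like *far-1*, the sums for intestine, neurons and pharynx were also highest in control B. The sums for neurons were 91.3 to 134 CPM in the *elt-2* RNAi libraries and 138 to 215 CPM in the control libraries, which did not overlap. That rested on single genes and on TMM. The neuron sums overlapped without *sbt-1* or without *egl-21*, both chosen after the values were seen, and with scaling by total counts. The sums for pharynx were 178 to 409 CPM in the *elt-2* RNAi libraries and 309 to 860 CPM in the control libraries. The part of these tissues in the values of the *lbp* and *far* genes was not tested.

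**Figure D4:**
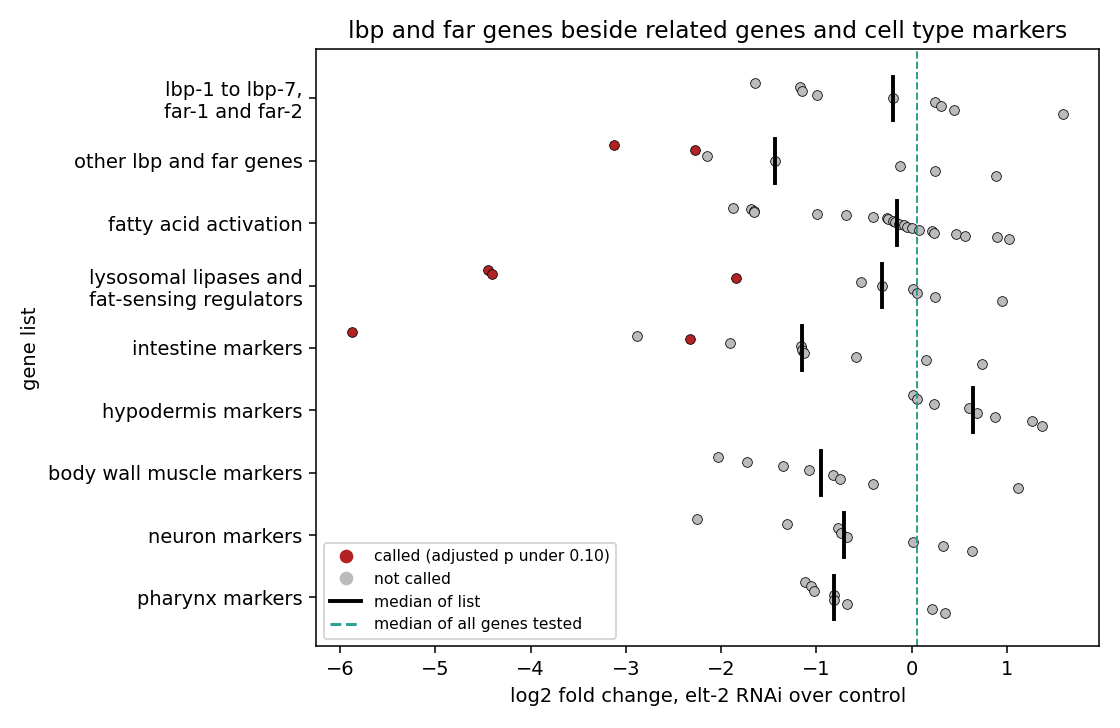
Log2 fold change, *elt-2* RNAi over control, of the tested genes in each list, with called genes in red, the median of each list as a black bar and the median of all genes tested (0.06) as a dashed line; the leftmost point, *mtl-2*, is a fitted value for a gene at the floor in the *elt-2* RNAi libraries. Called genes appear only among the remaining *lbp* and *far* genes (2), the lipases and regulators (3) and the intestine markers (2), and all lie left of 0.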

How the data were processed

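Whole-larva RNA of 6 L1 libraries was analysed. The deposited values are raw counts for each gene, which the authors did not normalize; the submitters' processing notes name Bowtie 0.12.7, and the counting tool, genome build and annotation are not given in the sources used here. Gene names and positions were taken from the Ensembl annotation of WBcel235, in which 19436 of 20351 identifiers were matched.

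Counts were tested with edgeR 4.0.16 in R 4.3.3 (quasi-likelihood test, TMM scaling, edgeR's expression filter, no covariate), with p-values adjusted after Benjamini and Hochberg across the 10063 genes that passed, and called at an adjusted p under 0.10. Adjusted p-values named as edgeR's are from this adjustment or, for an alternative fit, from the same method across the genes tested in that fit. Standard errors and 95% intervals were taken from the fold change and its F statistic. The *lbp* and *far* genes and the lists were chosen with earlier results of these data known. The rule for named genes covered all 10 genes, the rest of both families, called genes of the lists, and the genes most like called ones. Since none of the 10 was called, *lbp-6*, *lbp-1* and *far-1* were chosen for that step after their values were seen. Genes of the lists and markers that are named without a call in edgeR were likewise chosen after their values were seen. The symbol *acs-8* was not matched. An exact two-sided permutation test cannot go below p = 0.1 with 3 libraries a group, so none is given.

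Alternatives were 2 other filters on low counts, scaling by total counts or by size factors of DESeq2 1.42.0, its Wald test, a stricter threshold of 0.05, a replicate block, a rank product with 100 permutations on log2(CPM + 1), and each library left out in turn. The CPM of the rank product, and of the difference of mean log2(CPM + 1), were scaled by total counts and not by TMM. The study used a rank product on fractions of reads; the count test was preferred here because counts were deposited. Scripts were tested on simulated data. The A, B and C of the labels are not stated to mark a shared batch.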

Additional observations from a re-analysis of the deposited data

How the results depend on the processing

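The main analysis called 263 genes lower and 20 higher, and 0 of the *lbp* and *far* genes named at the start in either direction. Genes called lower and higher numbered 790 and 238 with no filter beyond 1 count, 149 and 52 with library size as the scaling, 518 and 90 with the DESeq2 Wald test, 123 and 0 with the rank product (whose unadjusted p was under 0.05 for 348 higher genes), and 132 and 7 with an adjusted p under 0.05. A mean count of at least 10 gave 12 higher. Leaving out each library gave 77 to 520 lower and 3 to 63 higher, the lowest without *elt-2* RNAi B and the highest without control A.

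The replicate block gave 444 lower and 51 higher. Deviations from the group means correlated at 0.35 between the A libraries, 0.42 between the B and 0.01 between the C libraries, and control C and *elt-2* RNAi A reached 0.35, so the letters were not taken to pair the libraries.

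Of the 10 genes, 1 was called lower (*lbp-6*) with no filter beyond 1 count, with the DESeq2 Wald test and with the replicate block, and 1 was called higher (*lbp-1*) with no filter beyond 1 count. Leaving out a library gave 0 to 1 lower (*lbp-6*, without control A) and 0 higher. The causes were not tested.

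Signs turned for *lbp-7* and *far-5* in 3 alternatives that all scale by total counts, without TMM. These were library size, the rank product and the difference of mean log2(CPM + 1). They gave 0.091, 0.21 and 0.21 for *lbp-7* and 0.31, 0.17 and 0.17 for *far-5*. When 1 library was left out, signs turned for *lbp-7* (-0.43 to 0.036), *far-2* (-0.36 to 1.53), *far-5* (-0.34 to 0.050) and *lbp-9* (-1.99 to 0.086). The signs of *lbp-1* to *lbp-6* and *far-1* held under all alternatives. At 4 and 3 counts per group, depth limited *lbp-8* to a description.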
